A study of Mus musculus with 12 samples.

Results

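The peroxisome proliferator-activated receptors (PPARs), their partner receptors of the RXR family, the liver X receptors (LXRs) and the corepressor Ncor1 were followed in 3T3-L1 cells during the first hours of adipogenesis. The 8 genes, of 18217 named on the array, are Pparg, Ppard, Ppara, Rxra, Rxrb, Nr1h2 (LXR beta), Nr1h3 (LXR alpha) and Ncor1. Their members on the array were found by transcript accession, which gave 12 probes out of 41174 probes that are not controls: 1 each for Pparg, Ppard, Ppara, Nr1h2 and Nr1h3, 2 each for Rxra and Rxrb, and 3 for Ncor1. The rule that finds these probes uses no measured value.

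3T3-L1 is a line of mouse embryonic fibroblasts, grown from 1 clone, that turns into adipocytes in culture when hormones are added to confluent cells. Uninduced cells (0 h) were kept in medium with 10% newborn bovine serum, and induced cells were taken 6 h after a change to medium with 10% fetal bovine serum, 0.5 mM isobutylmethylxanthine (an inhibitor of cAMP breakdown), 1 µM dexamethasone (a glucocorticoid) and 5 µg/ml insulin, so the effects of the serum, of the single agents and of time cannot be told apart. Both media held 25 mM HEPES and antibiotics, and all lysates held cycloheximide, which keeps ribosomes on the mRNA. Each lysate was separated on a sucrose gradient, of which fractions 5 to 7 made up the non-polysomal pool and 9 to 11 the polysomal pool, and each of the 4 groups had 3 biological replicates on one-color Agilent arrays. The sample descriptions and the methods number the day of confluence differently, so the groups are named by hours after induction.

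PPARs are nuclear receptors that bind fatty acids and their derivatives and act on DNA as pairs with an RXR, the receptor of 9-cis retinoic acid. Pparg drives the fat cell program, Ppara is best known for fatty acid oxidation in liver, and Ppard is found in many tissues. LXRs bind oxysterols, also pair with an RXR, and switch on genes of cholesterol efflux and fatty acid synthesis. Without ligand, such pairs can hold corepressors, among them Ncor1, a large protein that carries the histone deacetylase Hdac3 to the DNA. In preadipocytes, Cebpb and Cebpd are induced within hours of the hormones and act ahead of Pparg.

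Pparg has 3 start sites in the RefSeq promoter table (build GRCm38.p6), all on the plus strand of chromosome 6. Which of their transcripts its single probe detects was not analysed. The 250 bases before each start are shown because Pparg is the receptor that the other members are grouped around here, with matches to any of 4 motifs in capitals. The motifs were AGGTCA (the hexamer bound by nuclear receptors), AGAACA (a hexamer bound by the glucocorticoid receptor), TGACGTCA (the cAMP response element) and TTGCNNAA (a C/EBP site), all searched on both strands, and no matches overlapped.
Pparg start 1, chr6:115360894-115361143: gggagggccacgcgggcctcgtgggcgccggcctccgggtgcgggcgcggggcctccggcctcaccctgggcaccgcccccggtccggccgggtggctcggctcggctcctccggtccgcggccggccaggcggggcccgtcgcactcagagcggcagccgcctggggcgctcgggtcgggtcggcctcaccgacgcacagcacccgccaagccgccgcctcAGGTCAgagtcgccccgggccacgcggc
Pparg start 2, chr6:115362099-115362348: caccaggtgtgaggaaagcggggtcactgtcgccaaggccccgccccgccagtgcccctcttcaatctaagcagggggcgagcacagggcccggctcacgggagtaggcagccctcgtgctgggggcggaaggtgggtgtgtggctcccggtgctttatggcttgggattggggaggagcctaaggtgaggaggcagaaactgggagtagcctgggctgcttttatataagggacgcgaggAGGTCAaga
Pparg start 3, chr6:115421816-115422065: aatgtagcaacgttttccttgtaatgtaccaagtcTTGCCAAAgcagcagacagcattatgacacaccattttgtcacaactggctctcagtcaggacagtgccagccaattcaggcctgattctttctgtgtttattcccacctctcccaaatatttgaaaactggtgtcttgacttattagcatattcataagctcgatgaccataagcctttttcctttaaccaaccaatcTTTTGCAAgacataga
The first and the second start each held 1 nuclear receptor hexamer, and the third held 2 C/EBP matches, the nearer one from 16 to 9 bases before the start. Of 32851 promoter windows of this length, 14% held AGGTCA, 16.1% AGAACA, 1.55% TGACGTCA and 9.56% TTGCNNAA. The 8 members had 14 such windows. Besides those of Pparg, the second start of Rxra held 2 nuclear receptor hexamers and the first start of Ncor1 held 2 glucocorticoid receptor hexamers and 1 C/EBP match. The windows of Ppard, Ppara, Rxrb, Nr1h2 and Nr1h3 held none of the 4 motifs.

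The arrays held 45018 spots, and 55.6% to 60.7% of the probes on an array were well above background. The 75th percentile of the intensity was 241 to 269 on the 0 h non-polysomal, 449 to 514 on the 0 h polysomal, 253 to 281 on the 6 h non-polysomal and 426 to 567 on the 6 h polysomal arrays. Values below are log2 signals scaled by 10 spike-in transcripts, and the number of arrays limits their precision. All 11 fibroblast and preadipocyte markers were well above background on all 12 arrays, as were 5 of 9 markers of mature adipocytes (Adipoq, Fabp4, Plin1, Cidec and Lipe), while Lep, Cfd and Slc2a4 were on none. The log2 of the summed signals of the adipocyte list was 14.3 to 14.35 non-polysomal and 15.4 to 15.66 polysomal at 0 h. At 6 h it was 14.21 to 14.24 and 16.42 to 16.56. Fabp4 alone had means of 14.31, 15.5, 14.22 and 16.47 in the same order, so the sum follows this gene. Of the 5 adipocyte markers measured on polysomes 3 were called higher at 6 h and 2 lower, with Plin1 at -0.91. Of 5 macrophage markers Csf1r and Lyz2 were well above background on all arrays and Itgam on none, and Csf1r rose by 1.78 on polysomes and by 1.03 off them. The log2 of the summed macrophage signals was 7.45 to 7.56 and 8.13 to 8.54 at 0 h. It was 7.59 to 7.81 and 8.84 to 8.97 at 6 h. Of 4 endothelial markers Pecam1, Kdr and Tek were on no array, and Cdh5 was on 3, the polysomal arrays at 6 h. Its polysomal difference of 3.62 was taken against 0 h signals that were not well above background. The size of this rise was therefore not measured, and no bound was computed for it. The log2 of the summed list signals was 2.88 to 3.3 on all groups but the 6 h polysomal one, at 5.13 to 5.28. Of 4 epithelial markers Krt8 was on all arrays and the others on none, with the log2 of the sums at 4.3 to 5.2. Their part in the results was not tested.

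The spike-ins did not give 1 offset for the 6 h polysomal arrays. The 5 dimmer transcripts were lower there than on the other arrays by 0.91 to 0.76 on the log2 scale, and the 5 brighter ones by 0.28 to 0.02. The mean over all 10 was used. The 5 brighter transcripts had mean log2 signals of 18.3 to 19.06, above every member probe on every array (at most 15.21). Those of the 5 dimmer ones were 7.82 to 16.8. Values with the offset from the 5 dimmer ones alone are given below for a number of results. Which offset holds for the member probes was not tested.

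**Figure D1:**
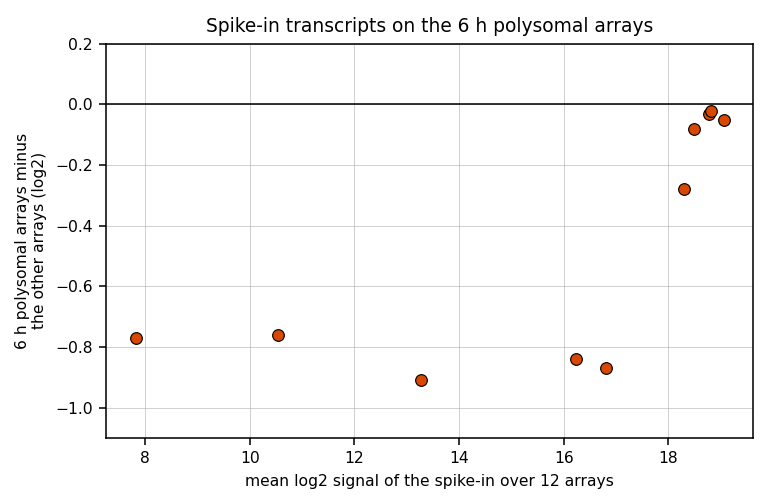
Each point is 1 of the 10 spike-in transcripts, with its mean log2 signal over the 12 arrays on the x axis and the mean of the 6 h polysomal arrays minus that of the other 9 arrays (log2) on the y axis. The 5 dimmer transcripts lie between -0.91 and -0.76 and the 5 brighter ones between -0.28 and -0.02.

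The first comparison asked how the mRNA of each receptor changed within a fraction over the 6 h. In the polysomal fraction 4 member probes rose (Ppard, both Rxra probes and Nr1h2) and 7 fell (Ppara, Nr1h3, both Rxrb probes and the 3 Ncor1 probes) at an adjusted p below 0.05, where 50.6% of all probes were called higher and 11.7% lower. In the non-polysomal fraction 2 rose (Ppard and probe 2 of Rxra) and 8 fell, beside 20.5% of all probes called higher and 19.7% lower. The median change of the 12 member probes was -0.26 in the polysomal and -0.40 in the non-polysomal fraction on the log2 scale, while that of all probes was 0.54 and 0.04. Scaling to the 75th percentile, which moved the median of all probes to 0.05 in the polysomal fraction, gave 1 member probe higher and 9 lower there. In RNA from whole cultures, fewer cells that express a gene and less RNA per cell cannot be told apart.

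**Figure D2:**
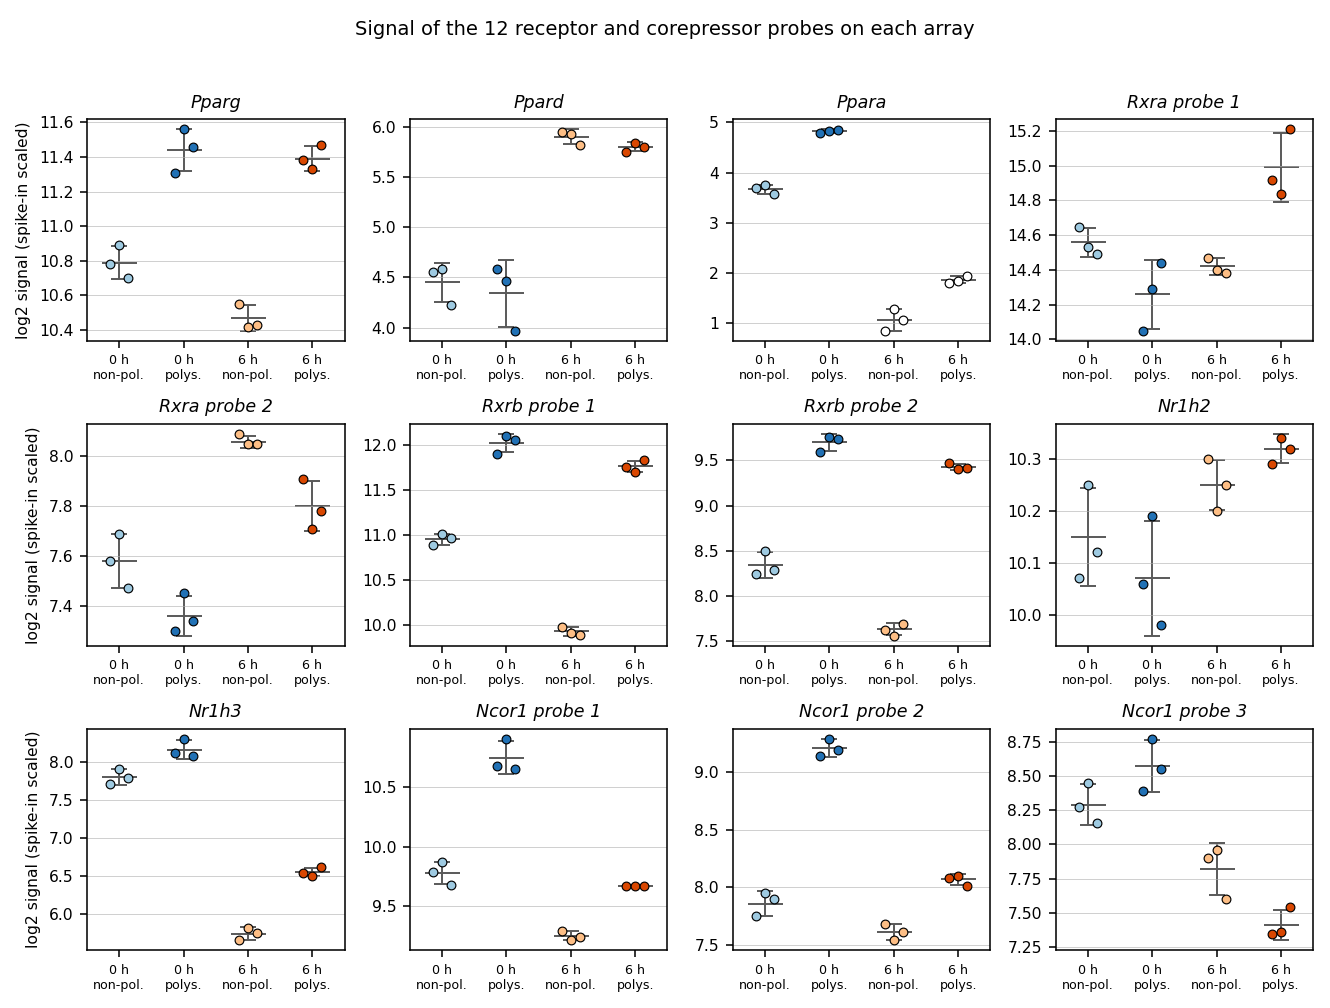
Each panel is 1 probe, with the 4 groups on the x axis and the log2 signal (spike-in scaled) on a y axis of its own range that does not start at 0. Points are the 3 arrays of a group, open where the probe was not well above background, and bars are the mean and SD. Ppara, Nr1h3 and the polysomal Ncor1 signals are lower at 6 h, and Ppard is higher.

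Pparg (NM_011146, chromosome 6, 115360879 to 115490404, GRCm38.p6) was measured by 1 probe printed 10 times. Its log2 signal was 10.78, 10.89 and 10.70 in the non-polysomal and 11.31, 11.56 and 11.46 in the polysomal fraction before induction. The 6 h values were 10.55, 10.42 and 10.43 in the non-polysomal and 11.38, 11.33 and 11.47 in the polysomal fraction. The polysomal arrays of the time points overlapped, and the non-polysomal ones did not. Pparg was 0.32 lower (SE 0.088) in the non-polysomal fraction at 6 h (limma, adjusted p = 0.015), which is 1.25-fold, and this call was lost without the 0 h replicate 2, without the 6 h replicate 2 or 3 and without any of the 3 replicate numbers, where the change ranged from -0.37 to -0.25 over all left-out arrays and replicate numbers.

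In the polysomal fraction Pparg differed by -0.05 (SE 0.088, 95% interval -0.25 to 0.15, adjusted p = 0.64) between the time points. The sign and the call of that value followed the scaling: it was -0.53 (adjusted p = 3.5e-06) with the 75th percentile, -0.76 with quantile normalization, 0.35 with the 5 dimmer spike-ins and 0.27 with a line fitted to the spike-ins. The 10 spots of the Pparg probe differed on 1 array by an SD of 0.023 to 0.1, and the arrays of a group by 0.074 to 0.12.

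Ppard (NM_011145, chromosome 17, 28232754 to 28301469) rose in both fractions by about the same amount. The signal was 4.55, 4.58 and 4.23 in the non-polysomal and 4.58, 4.46 and 3.97 in the polysomal fraction before induction. The 6 h values were 5.95, 5.93 and 5.82 in the non-polysomal and 5.75, 5.84 and 5.8 in the polysomal fraction. Every 6 h array lay above every 0 h array. The rise was 1.46 (SE 0.15, adjusted p = 1.9e-05) in the polysomal fraction, 2.75-fold, and 1.45 (SE 0.15, adjusted p = 2.7e-05) in the non-polysomal fraction, 2.73-fold. Both were called in the same direction under all 25 alternatives tried, with 0.76 to 2.22 in the polysomal and 0.61 to 1.69 in the non-polysomal fraction. The probe was dim, at intensities of 17.5 to 68.8, but well above background on all 12 arrays.

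Ppara (NM_011144, chromosome 15, 85734910 to 85806851), printed 10 times as well, fell in both fractions to a level that the arrays did not measure. The log2 signal was 3.69, 3.75 and 3.58 in the non-polysomal and 4.79, 4.84 and 4.86 in the polysomal fraction before induction. It was 0.85, 1.29 and 1.06 in the non-polysomal and 1.81, 1.84 and 1.95 in the polysomal fraction at 6 h, where the probe was not well above background on any array. The 6 h values are therefore bounds, computed per array as the higher of the probe's own signal and the lowest signal rated well above background. Ppara was at least 2.48-fold lower in the polysomal and at least 1.62-fold lower in the non-polysomal fraction. The adjusted p-values of limma, 1.1e-08 and 5.4e-08, belong to the differences of -2.96 and -2.61 between the group means. No test was made of these bounds. The measured group means behind these bounds were 4.83 and 1.87 in the polysomal and 3.67 and 1.07 in the non-polysomal fraction. The polysomal fall was called under 24 of 25 alternatives and was -0.06 with normexp background correction, whose offset is above these signals, and the non-polysomal fall was called under all 25.

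Rxra (NM_011305, chromosome 2, 27676445 to 27763319) had 2 probes of the same accession that did not behave alike. Probe 1 read 14.65, 14.53 and 14.49 in the non-polysomal and 14.05, 14.29 and 14.44 in the polysomal fraction at 0 h, then 14.47, 14.4 and 14.38 in the non-polysomal and 14.92, 14.84 and 15.21 in the polysomal fraction at 6 h. Its polysomal signal was thus higher on all 6 h arrays than on all 0 h arrays, by 0.73 (SE 0.12, adjusted p = 0.00055), and its non-polysomal difference was -0.14 (SE 0.12, adjusted p = 0.45). The polysomal rise turned to -0.40 (adjusted p = 0.009) with quantile normalization and was 0.25 (adjusted p = 0.051) with the 75th percentile.

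Probe 2 of Rxra read 7.58, 7.69 and 7.47 in the non-polysomal and 7.3, 7.45 and 7.34 in the polysomal fraction at 0 h, then 8.09, 8.05 and 8.05 and 7.91, 7.71 and 7.78 at 6 h. Neither fraction overlapped between the time points. The rise was 0.48 (SE 0.084, adjusted p = 0.00085) in the non-polysomal fraction, with 0.38 to 0.55 over the alternatives. In the polysomal fraction it was 0.44 (SE 0.084, adjusted p = 0.0014), but -0.05 with the 75th percentile, and the call was lost without replicate number 1.

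Rxrb (NM_011306, chromosome 17, 34031812 to 34038403) had 2 probes that moved alike and fell more in the non-polysomal than in the polysomal fraction. Probe 1 was 10.89, 11.01 and 10.96 in the non-polysomal and 11.9, 12.1 and 12.05 in the polysomal fraction before induction. The 6 h values were 9.98, 9.91 and 9.89 in the non-polysomal and 11.75, 11.7 and 11.83 in the polysomal fraction. The non-polysomal arrays were separated by 1.02 (SE 0.075, adjusted p = 2.1e-06), 2.03-fold, and probe 2 fell by 0.72 there (SE 0.086, adjusted p = 6.5e-05), from 8.24, 8.5 and 8.29 to 7.62, 7.56 and 7.69. Both non-polysomal falls were called under all 25 alternatives.

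In the polysomal fraction probe 2 of Rxrb read 9.59, 9.76 and 9.74 at 0 h and 9.47, 9.41 and 9.42 at 6 h, so the groups were apart by a small step. The polysomal changes were -0.26 (SE 0.075, adjusted p = 0.014) for probe 1 and -0.27 (SE 0.086, adjusted p = 0.021) for probe 2, and they turned to 0.15 and 0.14 with the 5 dimmer spike-ins and to 0.03 and 0.19 with a line fitted to the spike-ins. The call of probe 1 was lost without the 6 h polysomal replicate 2 and without replicate number 2 or 3, and that of probe 2 without this array, without the 0 h polysomal replicate 2 or 3 and without any of the replicate numbers; the ranges over left-out arrays and replicate numbers were -0.31 to -0.19 and -0.34 to -0.22.

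The LXR genes differed in their response. Nr1h3 (NM_013839, chromosome 2, 91184061 to 91202829) read 7.71, 7.91 and 7.79 in the non-polysomal and 8.12, 8.3 and 8.07 in the polysomal fraction before induction. The 6 h readings were 5.65, 5.81 and 5.75 in the non-polysomal and 6.54, 6.5 and 6.61 in the polysomal fraction, all well above background. Every 6 h array of either fraction lay below every 0 h array. Nr1h3 fell by 2.06 on the log2 scale (SE 0.088, adjusted p = 6.2e-08), 4.18-fold, in the non-polysomal fraction and by 1.61 (SE 0.088, adjusted p = 1.5e-07), 3.06-fold, in the polysomal fraction, and both were called under all 25 alternatives. Its polysomal change was lower than that of all but 2.23% of the probes tested.

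Nr1h2 (NM_009473, chromosome 7, 44549616 to 44553968) was near level. Its signal was 10.07, 10.25 and 10.12 in the non-polysomal and 10.06, 10.19 and 9.98 in the polysomal fraction at 0 h, and 10.3, 10.2 and 10.25 and 10.29, 10.34 and 10.32 at 6 h. The non-polysomal arrays overlapped between the time points (0.11, SE 0.079, 95% interval -0.07 to 0.28, adjusted p = 0.37). The polysomal rise of 0.24 (SE 0.079, adjusted p = 0.021) turned to -0.24 with the 75th percentile and to -0.32 with quantile normalization, and the call was lost without the 0 h polysomal replicate 3, the 6 h polysomal replicate 2 or replicate number 1 or 3, with a range of 0.19 to 0.3.

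Ncor1 (NM_011308, chromosome 11, 62315663 to 62457414) fell in both fractions on all 3 probes, and with all spike-ins fell further on polysomes. Probe 2 read 9.14, 9.29 and 9.19 in the polysomal fraction at 0 h and 8.08, 8.1 and 8.01 at 6 h. Off polysomes it read 7.75, 7.95 and 7.9 at 0 h and 7.68, 7.54 and 7.61 at 6 h, a much narrower gap. The polysomal falls of probes 1, 2 and 3 were 1.08 (SE 0.085, adjusted p = 2e-06), 1.14 (SE 0.079, adjusted p = 8.1e-07) and 1.16 (SE 0.13, adjusted p = 3.7e-05), 2.11-fold to 2.23-fold. These polysomal falls were called under all 25 alternatives for each probe. Their lead over the non-polysomal falls depended on the scaling. With a line fitted to the spike-ins the polysomal changes of probes 1, 2 and 3 were -0.66, -0.6 and -0.57. The non-polysomal ones were then -0.63, -0.37 and -0.59.

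The non-polysomal changes of Ncor1 were -0.53 (adjusted p = 0.00047), -0.26 (adjusted p = 0.025) and -0.48 (adjusted p = 0.016). The call of probe 2 was lost without either of the replicates 2 and 3 at 0 h or at 6 h and without replicate number 2 or 3 (range -0.35 to -0.18), and that of probe 3 without the 0 h replicate 2, the 6 h replicate 3 or any of the replicate numbers (range -0.54 to -0.37). Probe 1 read 10.68, 10.91 and 10.66 on polysomes at 0 h and 9.67 on each of the 3 arrays at 6 h, and its non-polysomal signal went from 9.79, 9.87 and 9.68 to 9.29, 9.21 and 9.24. Probe 3 went from 8.39, 8.77 and 8.55 to 7.35, 7.36 and 7.54 on polysomes and from 8.27, 8.45 and 8.16 to 7.9, 7.96 and 7.6 off them. None of these groups overlapped between the time points.

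**Figure D3:**
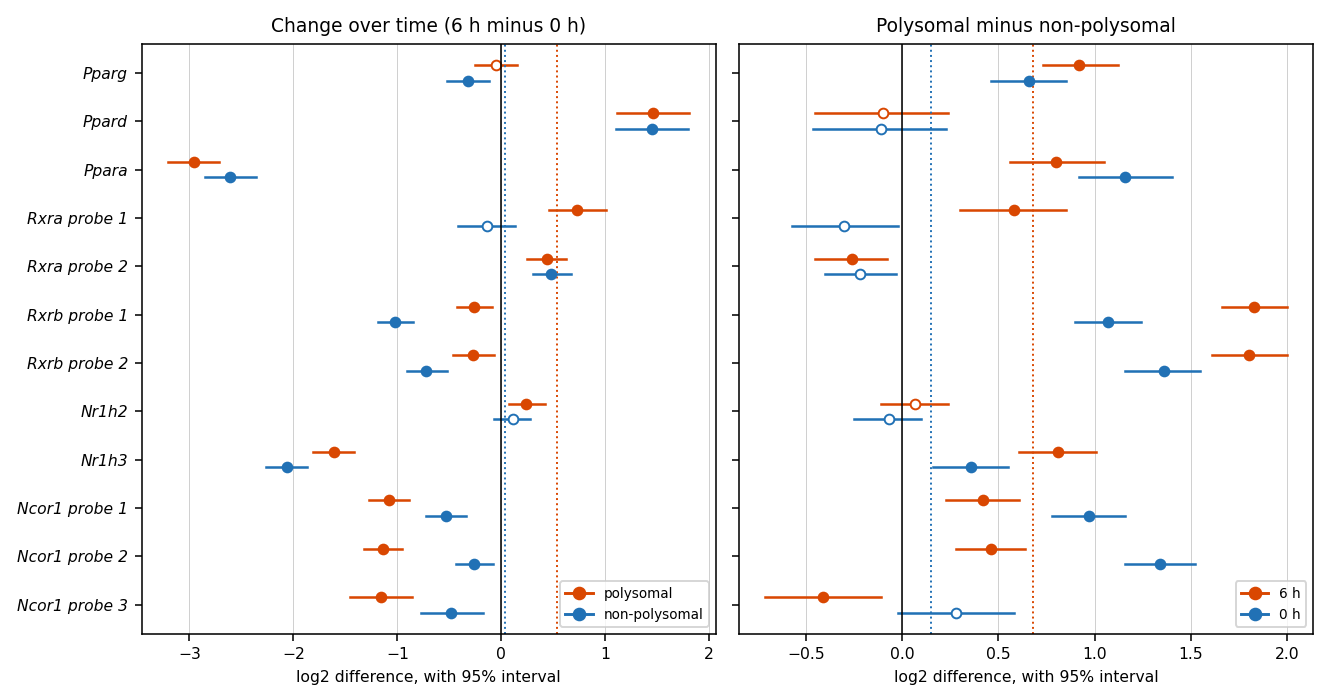
For each probe, the left panel gives the log2 difference between 6 h and 0 h in the polysomal (orange) and non-polysomal (blue) fraction, and the right panel that between the fractions at 6 h (orange) and 0 h (blue), with 95% intervals from limma. Filled points have an adjusted p below 0.05, dotted lines are the medians of all probes, and the falls of Ppara and Nr1h3 stand farthest to the left.

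The second comparison asked whether time changed the fractions differently. The M-value of the study, (p6 - np6) - (p0 - np0) with p for polysomal and np for non-polysomal log2 signals, is above 0 where the polysomal signal gained on the non-polysomal one. It shares its arrays with the comparisons above. Of the 12 member probes, 4 had a higher M-value at an adjusted p below 0.05 (probe 1 of Rxra, both Rxrb probes and Nr1h3) and 3 a lower one (all Ncor1 probes), where 32.1% of all probes were called higher and 3.98% lower. No member reached an M-value of 1 or -1. The median M-value was 0.07 over the member probes and 0.49 over all probes. The 75th percentile moved the latter to 0.06 and gave 2 member probes higher and 5 lower, and the 5 dimmer spike-ins moved it to 0.94 and gave 7 higher and 1 lower. The split was 1 higher and 8 lower with quantile normalization and 9 higher and 0 lower with a line fitted to the spike-ins.

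All 3 Ncor1 probes shifted away from polysomes relative to the other probes on the array. Their M-values were -0.54 (SE 0.12, adjusted p = 0.0056), -0.88 (SE 0.11, adjusted p = 0.00024) and -0.68 (SE 0.19, adjusted p = 0.019), and only 6.47%, 3.17% and 4.79% of the probes tested lay below them. On the single slides, which held 1 replicate of each group, the values were -0.52, -0.58 and -0.54 for probe 1, -0.99, -0.78 and -0.88 for probe 2 and -0.67, -0.92 and -0.45 for probe 3. All 9 were below 0, but they come from 3 probes of 1 gene on the same arrays as the tests and are not 9 replicates. With a line fitted to the spike-ins none of the 3 was called, at -0.03 (adjusted p = 0.84), -0.23 (adjusted p = 0.16) and 0.01 (adjusted p = 0.93), and with the 5 dimmer spike-ins the values were -0.09 (adjusted p = 0.52), -0.43 (adjusted p = 0.014) and -0.23 (adjusted p = 0.25). Against the median of all probes, the 3 probes lay 1.03, 1.37 and 1.17 lower.

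Probe 1 of Rxra and both Rxrb probes had positive M-values. They were 0.88 (SE 0.17, adjusted p = 0.0032) for probe 1 of Rxra, 0.77 (SE 0.11, adjusted p = 0.00041) for probe 1 and 0.45 (SE 0.12, adjusted p = 0.016) for probe 2 of Rxrb. Single slides, which hold the same arrays as the tests, gave 1.06, 0.68 and 0.89 for Rxra and 0.75, 0.7 and 0.85 and 0.49, 0.58 and 0.27 for the Rxrb probes, all above 0. Beside the median of all probes these M-values stood 0.39 and 0.28 higher for Rxra and probe 1 of Rxrb, and 0.04 lower for probe 2 of Rxrb. With quantile normalization they shrank to 0.06, 0.10 and 0.04, none of them called. Probe 2 of Rxra had an M-value of -0.05 (SE 0.12, 95% interval -0.31 to 0.22, adjusted p = 0.76), which was 0.40 with the 5 dimmer spike-ins and -0.47 with the 75th percentile, so the Rxra probes give no common direction.

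Nr1h3 had an M-value of 0.45 (SE 0.12, adjusted p = 0.018), 0.47, 0.3 and 0.58 on the single slides: its fall was smaller on polysomes than off them. This lay 0.04 below the median of all probes and was 0.03 (adjusted p = 0.93) with the 75th percentile. For Pparg the M-value was 0.27 (SE 0.12, 95% interval -0.01 to 0.55, adjusted p = 0.11), with 0.29, 0.24 and 0.28 on the slides, and for Nr1h2 0.14 (SE 0.11, 95% interval -0.11 to 0.39, adjusted p = 0.34). Both turned below 0 with the 75th percentile (-0.15 and -0.29) and quantile normalization (-0.30 and -0.31). For Ppard it was 0.01 (SE 0.22, 95% interval -0.48 to 0.5, adjusted p = 0.98), and -0.66 with quantile normalization and -0.41 with the 75th percentile. The M-value of Ppara, -0.36 (adjusted p = 0.094), rests on 6 h signals that were not well above background, and was 0.10 with the 5 dimmer spike-ins and 0.82 with a line fitted to the spike-ins.

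**Figure D4:**
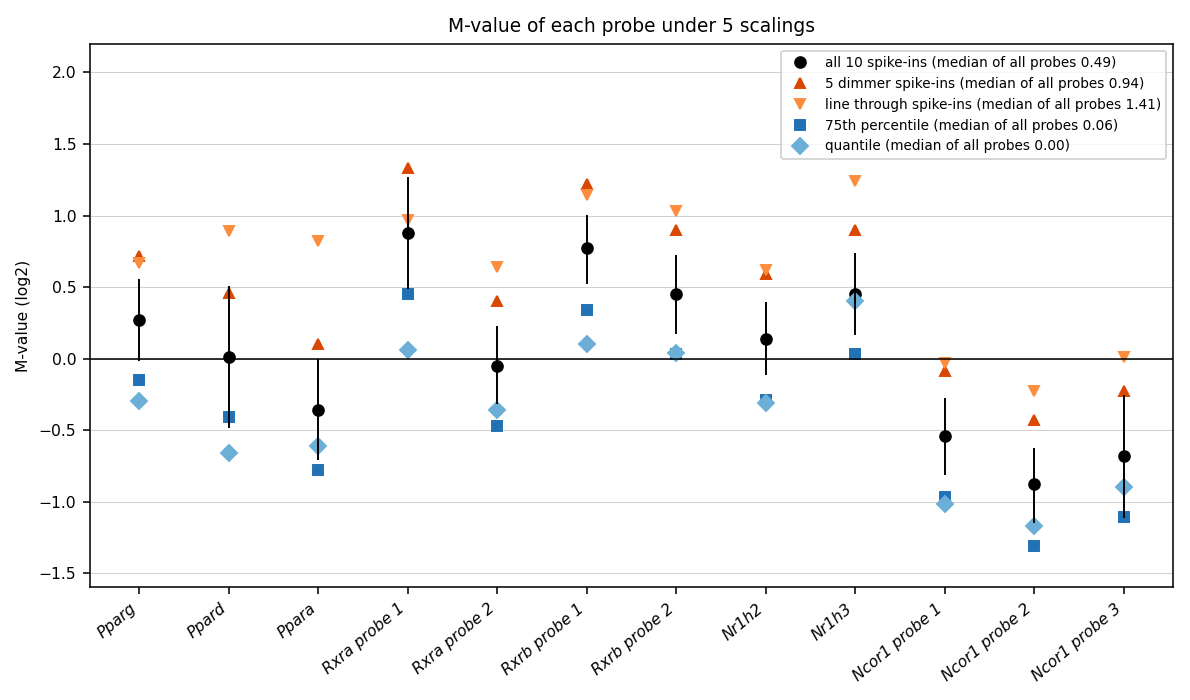
The y axis is the M-value (log2) of each probe on the x axis under 5 scalings of the arrays, and the black bars are the 95% intervals with all 10 spike-ins. The 3 Ncor1 probes are the lowest under each scaling, while the order of the others changes. Probe 1 of Rxra is highest with all spike-ins (0.88), and Nr1h3 with quantile normalization (0.40) and with a line fitted to the spike-ins (1.24). The median of all probes goes from 0 with quantile normalization to 1.41 with the line, and the probes do not all move by the same amount.

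The third comparison took the fractions within a time point. At 0 h 7 member probes were called higher on polysomes (Pparg, Ppara, both Rxrb probes, Nr1h3 and probes 1 and 2 of Ncor1) and 0 lower, beside 37.1% of all probes called higher and 14.9% lower. At an unadjusted p below 0.05 limma had 2 lower, probe 1 of Rxra at -0.30 (95% interval -0.57 to -0.02) and its probe 2 at -0.22 (95% interval -0.4 to -0.03). At 6 h, of the 11 probes well above background in at least 1 of the fractions (all but Ppara), 7 were higher and 2 lower (probe 2 of Rxra and probe 3 of Ncor1). Of all probes on the array, those not well above background included, 60% were called higher and 9.96% lower. Both lower calls were lost without replicate number 1 or 2, without the 6 h non-polysomal replicate 1 and without the 6 h polysomal replicate 2. That of Rxra was also lost without replicate number 3 (range -0.32 to -0.22), and that of Ncor1 without the 6 h non-polysomal replicate 2 or the 6 h polysomal replicate 1 (range -0.58 to -0.31). This comparison moved most with the scaling: with the 75th percentile, where the medians of all probes were -0.74 at 0 h and -0.63 at 6 h, 4 member probes were higher and 7 lower at 0 h, and 2 higher and 9 lower at 6 h. Nr1h3 turned from 0.36 to -0.53 at 0 h, a call also lost without replicate number 1 or 3, and from 0.81 to -0.51 at 6 h, and probe 1 of Ncor1 from 0.42 to -0.89 at 6 h.

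The Rxrb probes kept a positive difference in all scalings, with 1.83 (SE 0.075, adjusted p = 5.2e-09) and 1.8 (SE 0.086, adjusted p = 1.5e-08) at 6 h and 0.41 to 2.21 and 0.49 to 2.32 over the alternatives. Pparg was 0.66 (SE 0.088, adjusted p = 8.1e-05) higher on polysomes at 0 h and 0.92 (SE 0.088, adjusted p = 4.6e-06) at 6 h, but -0.23 and -0.39 with the 75th percentile. Nr1h2 did not differ past the limit at 0 h (-0.07, 95% interval -0.25 to 0.1) or at 6 h (0.07, 95% interval -0.11 to 0.24), and was -0.96 and -1.25 with the 75th percentile. Probe 2 of Ncor1 went from 1.34 (SE 0.079, adjusted p = 1.1e-07) at 0 h to 0.46 (SE 0.079, adjusted p = 0.00049) at 6 h, the latter -0.86 with the 75th percentile.

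The genes around the receptors were grouped in 7 lists, with the brightest probe taken for each gene. Counts are of genes measured in a comparison, that is, well above background on all arrays of at least 1 of its groups. Among probes measured in this sense, 58.1% were called higher and 19.3% lower on polysomes, and 47.2% and 6.24% by the M-value. Of 12 other partners of RXR on the array 8 were measured on polysomes, where 6 rose and 1 fell (5 and 1 with the 75th percentile), at a median of 1.16 beside 0.54 for all probes. Vdr, the vitamin D receptor, rose by 6.02 (SE 0.099, adjusted p = 2.6e-10) on the log2 scale and Nr4a1, an orphan receptor of the immediate early response, by 5.94 (SE 0.093, adjusted p = 2.1e-10), with Nr4a2 at 4.13. Nr4a1 had the highest M-value of this list, 2.85 (SE 0.13, adjusted p = 1.2e-06), followed by Thra at 1.06 and Nr1h4 at 1.04, the last well above background on 1 of 3 polysomal arrays at 0 h. Thra, a thyroid hormone receptor, was at -0.35 in the polysomal fraction, which turned above 0 with the 5 dimmer spike-ins and with a line fitted to the spike-ins, and Rarb was well above background on 1 polysomal array, at 0 h. The M-value was higher for 6 and lower for 0 of 9 measured genes, with 0 lower in limma also at an unadjusted p below 0.05, and higher for 2 with the 75th percentile; the median was 0.82 beside 0.49 for all probes.

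Of 13 other corepressor genes 11 were measured, of which 9 rose on polysomes and 0 fell, with limma also at an unadjusted p below 0.05 (5 rose and 2 fell with the 75th percentile), at a median of 0.59, while Ncor1 fell. Hdac2, a histone deacetylase, rose by 1.36 (SE 0.19, adjusted p = 0.00017). Nrip1, a corepressor of nuclear receptors in fat, rose by 1.1 (SE 0.099, adjusted p = 5.6e-06) on polysomes and was the single gene of the list with a lower M-value (-0.57, SE 0.14, adjusted p = 0.0099). The M-value was higher for 8 (6 with the 75th percentile) at a median of 0.74, with Hdac2 at 2.18, Cops2 at 1.44 and Sin3b at 1.31. Of 15 coactivators 14 were measured, and 5 rose and 8 fell on polysomes (2 and 8 with the 75th percentile), at a median of -0.66. Ppargc1a, the PPAR coactivator of mitochondrial genes, fell by 4.10 (SE 0.11, adjusted p = 2.1e-09), Ncoa1 by 1.31 and Crebbp by 1.18, while its relative Pprc1 rose by 1.69 (SE 0.092, adjusted p = 1.4e-07), Prmt1 by 0.89 and Med1 by 0.52, the last pair turning below 0 with quantile normalization. For the M-value 6 coactivators were higher (4 higher and 5 lower with the 75th percentile) at a median of 0.33, among them Kat2a at 1.64, Kat2b at 0.98 and Carm1 at 0.76. The value of Kat2a had an SE of 0.55 (limma, adjusted p = 0.041) and was not called with the 75th percentile (1.22, adjusted p = 0.14). Ep300 was lower at -0.8, which was 0.05 with a line fitted to the spike-ins.

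Of 25 PPAR target genes 21 were measured, and 9 rose and 8 fell on polysomes (5 and 11 with the 75th percentile), at a median of 0.16. Ucp2, a mitochondrial carrier, rose by 3.28 (SE 0.08, adjusted p = 1.4e-09), and the lipid droplet gene Cidec by 1.53 and the acyl-CoA synthetase Acsl1 by 1.33. Angptl4, an inhibitor of lipoprotein lipase, fell by 2.67 (SE 0.073, adjusted p = 2.4e-09), Plin2, a coat protein of lipid droplets, by 2.16 (SE 0.087, adjusted p = 2.1e-08) and Acadl by 1.39. Their M-values were higher for 11 genes (4 higher and 7 lower with the 75th percentile) at a median of 0.4, among them Cidec at 1.51, Fabp4 at 1.06 (0 with quantile normalization) and Acsl1 at 1.02, and lower for Plin1 (-0.71; 0.18 with a line fitted to the spike-ins) and Lpl (-0.36; 0.10 with the 5 dimmer spike-ins).

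Of 17 LXR target genes 16 were measured, and 10 rose and 3 fell on polysomes (7 and 4 with the 75th percentile), at a median of 0.52. Arl4c rose by 2.58 (SE 0.079, adjusted p = 4.3e-09), Scd1, which makes monounsaturated fatty acids, by 2.57 (SE 0.077, adjusted p = 4e-09) and the fatty acid synthase Fasn by 1.03, the last at -0.19 with quantile normalization. Acaca fell by 0.74 (SE 0.12, adjusted p = 0.00044). The cholesterol transporter Abca1 was at -0.39 and the regulator Srebf1 at -0.34, both called, and both turned above 0 with the 5 dimmer spike-ins. M-values were higher for 8 (3 higher and 5 lower with the 75th percentile) at a median of 0.34, with Scd1 at 1.68, Smpdl3a at 1.11 (not well above background off polysomes) and the sterol transporter Abcg1 at 0.99, and lower for Acaca at -0.93, Abca1 at -0.88 and Fasn at -0.46.

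Of 22 regulators that act ahead of Pparg 20 were measured on polysomes, where 12 rose and 6 fell (11 and 7 with the 75th percentile), at a median of 0.82. Cebpb rose by 4.35 (SE 0.092, adjusted p = 6e-10), Klf5 by 4.11 (SE 0.089, adjusted p = 6.8e-10) and Foxo1 by 1.66. Gata3, which holds preadipocytes undifferentiated, fell by 3.70 (SE 0.38, adjusted p = 1.5e-05), with 1 of 3 polysomal arrays well above background at 6 h, Nr3c1, the glucocorticoid receptor, by 1.65 and Ebf1 by 1.63. The M-value was higher for 11 of 21, with Cebpb at 1.54, Dlk1 at 1.32 and Gata2 at 1.27, and lower for 0, in limma also at an unadjusted p below 0.05 (6 higher and 5 lower with the 75th percentile); the median was 0.71.

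Of 18 genes of ligand synthesis and binding 11 were measured on polysomes, where 6 rose and 3 fell (5 and 4 with the 75th percentile), at a median of 0.93. The retinol dehydrogenase Rdh10 rose by 2.88 (SE 0.09, adjusted p = 4.8e-09), the prostaglandin D synthase Ptgds by 1.19 and the cyclooxygenase Ptgs1 by 1.08 (-0.07 with quantile normalization). Cyp7b1, an oxysterol hydroxylase, fell by 2.14 (SE 0.095, adjusted p = 3.9e-08), Aldh1a1 by 0.86 and Ch25h, which makes 25-hydroxycholesterol, was at least 2.53-fold lower, as its 6 h signal was not well above background. For the M-value 7 of 12 were higher (4 higher and 3 lower with the 75th percentile) at a median of 0.64, led by the prostacyclin synthase Ptgis at 2.03 with Rdh10 at 1, and Ptgs2 was lower at -0.66, which was 0.24 with a line fitted to the spike-ins. The counts of several lists lie near the shares over all measured probes given above.

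**Figure D5:**
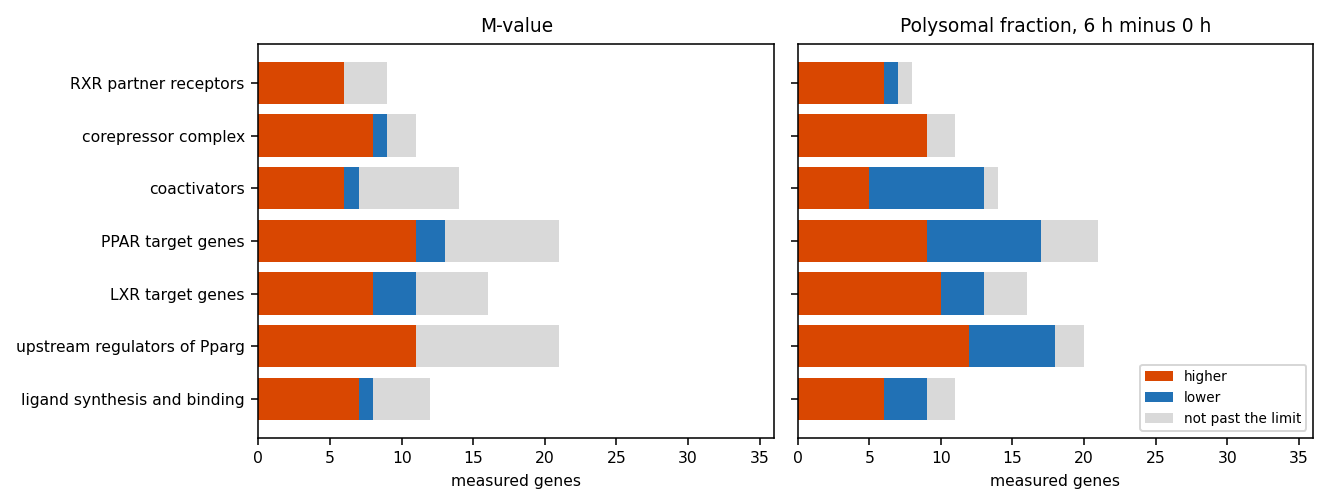
The bars give, for each of the 7 lists, the measured genes with a higher (orange), lower (blue) or uncalled (grey) value at an adjusted p below 0.05, for the M-value (left) and for the polysomal fraction at 6 h minus 0 h (right). The x axis counts genes, from 5 to 12 higher per list, and the coactivators are the list with more genes lower than higher on polysomes.

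The probes of other genes most like each member were looked for among those well above background on all 12 arrays, by Pearson's r over the 12 arrays, which fall into 4 groups, so r mainly compares the group means and is given as a description. For Pparg they were Mipol1, a probe named by the accession BI793804 and N4bp1 (r = 0.995, 0.995 and 0.994). For Ppard they were Asb1, Slc25a33 and Wnt4 (0.984, 0.982 and 0.982), and for Ppara Atg14, Rapgef3 and Zfp820 (0.997, 0.997 and 0.996). Nr1h3 was nearest to Gpr146, Gadd45a and Bmf (0.997, 0.996 and 0.995), and probe 1 of Rxrb to Ydjc, Pgghg and Nnmt (0.999 each). Probe 1 of Ncor1 was nearest to a probe named XM_132325, Prkd2 and Nek8 (0.996, 0.993 and 0.993), probe 1 of Rxra to Mrpl55, Ank and Vmac (0.973, 0.97 and 0.969), and Nr1h2, with the narrowest range of signals, to 3930402G23Rik, Spata31d1a and Ppp1r11 (0.963, 0.919 and 0.909). Among the members themselves Pparg followed probes 1 and 2 of Rxrb (r = 0.97 and 0.99), and Ppara and Nr1h3 followed each other (r = 0.98). Ppard ran opposite to Ppara and Nr1h3 (-0.94 each), as did probe 2 of Rxra (-0.95 and -0.94). The values with Ppara include its 6 h signals, which were not well above background.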

How the data were processed

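RNA of the 12 pools was hybridised to one-color mouse arrays of Agilent, and a fixed mass of each was labelled with Cy3, so the scaling rests on viral spike-in RNA that was put into the pools before extraction. Per the file headers, Feature Extraction 10.7.1.1 gave an intensity per spot with background and spatial trend removed and no scaling from array to array. The authors also deposited log2 values, which equal the log2 median pixel of a probe plus a constant on each array (array medians 5.43 to 6.07). The paper bases its normalisation on the spike-ins, but how those constants were computed could not be read from the values. The spots carry the scanner's marks for outliers and for signal well above background, and no probe outside the controls had a saturated spot.

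Spots marked as outliers (94 to 221 per array) were left out, log2 intensities of a probe's spots were averaged, and each array was shifted by an offset taken from 10 spike-in transcripts (the median of the 32 spots of each, then averaged and centred over the arrays). The shifts averaged 0.09, 0.14, 0.11 and -0.35 in the order 0 h non-polysomal, 0 h polysomal, 6 h non-polysomal and 6 h polysomal. Groups came from the sample labels. A linear model with 1 mean per group was fitted over all 12 arrays with limma 3.58.1 in R 4.3.3 (lmFit and eBayes, two-sided), with Benjamini-Hochberg adjustment over all probes tested and a limit of 0.05. Intervals are 95%. Gene symbols were found for 64.8% of the probes through RefSeq accessions, and gene and promoter coordinates are those of RefSeq on GRCm38.p6, while the grid of the arrays names mm9, of which no coordinate is used. The position of a probe within its transcript was not analysed here.

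Every probe of the 8 genes is named. From each of the 7 lists, up to 3 genes per direction with the largest differences were named among those past the limit and measured well above background throughout a group, for the M-value and for the polysomal change, and for each member the 3 probes of highest r. One gene that this rule names is not reported here. The members and lists were chosen with earlier results of these data known. The fit was tested on 41174 simulated probes drawn with the residual SDs seen here: of 100 changed by 1 on the log2 scale, 41% were recovered for the M-value and 58% for the polysomal change, and of 100 changed by 0.5, 0% and 8%, with 2 unchanged probes called in each. No other probe was changed there, while in these data 50.6% of all probes were called higher in the polysomal fraction and 32.1% by the M-value. The adjusted limit was thus stricter in the simulation, and its shares do not give the recovery in these data. Alternatives were 3 other scalings (the 75th percentile, quantiles, a line fitted to the spike-ins), the deposited log2 values, normexp with an offset of 50, a filter on dim probes, outlier spots kept, the replicate number (which is also the slide) as a block, a trended prior variance, averaging the probes of each gene, and leaving out each array or replicate number. The offset by the 5 dimmer spike-ins and normexp without spots of non-uniform background were added after seeing the data. The scanner files used here hold no mean signal, so normexp ran on the median signal and background.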

Additional observations from a re-analysis of the deposited data

Results flagged for a closer look

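For 7 of the 12 member probes the change over time differed between the polysomal and the non-polysomal fraction, by limma's test of that difference (the M-value). Of these 4 were higher and 3 lower, beside 32.1% of all probes called higher and 3.98% lower. Among probes well above background, these shares were 47.2% and 6.24%. The M-value was 0.88 for probe 1 of Rxra, 0.77 for probe 1 and 0.45 for probe 2 of Rxrb, and 0.45 for Nr1h3. It was -0.54, -0.88 and -0.68 for probes 1, 2 and 3 of Ncor1. The 3 Ncor1 probes lay 1.03 to 1.37 below the median of all probes, and probe 2 of Rxrb and Nr1h3 lay 0.04 below it. Of the 7, the calls of probe 2 of Rxrb and probe 3 of Ncor1 were lost without any of the 3 replicate numbers, and those of Nr1h3 and probe 1 of Ncor1 without replicate number 1 or 3. Quantile normalization lost the calls of probe 1 of Rxra and both Rxrb probes. The 75th percentile lost those of probe 2 of Rxrb and Nr1h3. A line fitted to the spike-ins lost those of all Ncor1 probes, and the 5 dimmer spike-ins those of its probes 1 and 3.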

How the results depend on the processing

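Over 25 alternatives and 60 values (12 probes in 5 comparisons), 1320 of 1500 values kept their direction and side of the limit, 78 were no longer called, 40 became called and 62 turned, 22 of them uncalled both before and after; the cause was not tested beyond the construction of the scalings, which move the median of all probes. In the polysomal change over time these medians were 0.54 with all spike-ins, 0.05 with the 75th percentile, 0.01 with quantile normalization, 0.94 with the 5 dimmer spike-ins and 1.41 with a line fitted to all spike-ins. The 75th percentile turned the polysomal change of probe 2 of Rxra to -0.05 and of Nr1h2 to -0.24, the fraction difference at 0 h of Pparg to -0.23, Nr1h3 to -0.53 and probe 3 of Ncor1 to -0.61, and that at 6 h of Pparg to -0.39, Ppara (not well above background in either fraction) to -0.51, probe 1 of Rxra to -0.74, Nr1h2 to -1.25, Nr1h3 to -0.51 and probes 1 and 2 of Ncor1 to -0.89 and -0.86. Quantile normalization turned the M-value of Pparg to -0.30, Ppard to -0.66 and Nr1h2 to -0.31, the polysomal change of probe 1 of Rxra to -0.40 and Nr1h2 to -0.32, the difference at 0 h of Pparg to -0.17, Nr1h3 to -0.54 and probe 3 of Ncor1 to -0.63, and that at 6 h of Pparg to -0.47, probe 1 of Rxra to -0.46, Nr1h2 to -1.29, Nr1h3 to -0.14 and probes 1 and 2 of Ncor1 to -0.91 and -0.73. A line fitted to the spike-ins turned the M-value of Ppara to 0.82, probe 2 of Rxra to 0.64 and probe 3 of Ncor1 to 0.01, the polysomal change of Pparg to 0.27 and of the Rxrb probes to 0.03 and 0.19, and the difference at 6 h of Ppard to 0.63, probe 2 of Rxra to 0.32 and probe 3 of Ncor1 to 0.20. The 5 dimmer spike-ins turned the M-value of probe 2 of Rxra to 0.40, the polysomal change of Pparg to 0.35 and of the Rxrb probes to 0.15 and 0.14, and the difference at 6 h of probe 2 of Rxra to 0.11. The uncalled values that turned were the M-value of Pparg (-0.15), Ppard (-0.41) and Nr1h2 (-0.29) with the 75th percentile, the non-polysomal change of Nr1h2 (-0.01) with quantile normalization, the M-value of Ppara with the deposited values (0.17), the 5 dimmer spike-ins (0.10) and normexp (0.19), that of probe 2 of Rxra with normexp (0.01), and for Ppard the difference at 6 h with the deposited values (0.08), the 5 dimmer spike-ins (0.27) and normexp (0.15) and that at 0 h with normexp (0). Leaving out arrays turned 10 more, all uncalled: the M-value of Ppard ranged from -0.17 to 0.13 and of probe 2 of Rxra from -0.12 to 0.01, the polysomal change of Pparg from -0.12 to 0.04 and the difference at 0 h of Ppard from -0.24 to 0.07.

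The count of member probes called between the fractions at 0 h went from 7 to 11 with the 75th percentile and to 11 with quantile normalization; the other totals stayed within 1.5 times under every scaling, but not their directions: by the M-value 4 higher and 3 lower became 9 and 0 with a line fitted to the spike-ins and 1 and 8 with quantile normalization, and at 6 h 8 and 2 became 11 and 0 with the line and 3 and 8 with quantile normalization, Ppara included. Averaging the probes of each gene kept all 35 list counts within 1.5 times. Leaving out 1 replicate number gave 3 to 5 member probes called by the M-value in place of 7 (3 without number 1 or 3), 8 to 9 in the polysomal change, 7 to 8 in the non-polysomal change, 6 to 7 between fractions at 0 h and 8 to 9 at 6 h, and leaving out 1 array gave 7 to 8, 8 to 11, 7 to 10, 7 to 8 and 8 to 10. The replicate number as a block, which is also the slide, left the counts at 7, 11, 10, 7 and 10 and changed no call of a member probe. Arrays of different groups were correlated after each probe's group mean was subtracted, over probes well above background on all arrays. Same-numbered arrays gave -0.1 to 0.42 (median 0.07), with 4 of 18 pairs over 0.1. Differently numbered arrays gave -0.38 to 0.21 (median -0.04), with 6 of 36 over 0.1, so the numbers alone do not pair the arrays. Normexp on all spots could not be fitted on 3 arrays, where the background mean came out at -946 to -213 against no lower than -4.96 elsewhere, and was left out. Signal over background limits Ppara, whose 6 h values are bounds.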
